A study of Mus musculus with 9 samples.

Results

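Cd274, Pdcd1lg2, Cd80 and Cd86 are the genes of the 4 ligands through which an antigen-presenting or tumor cell engages the PD-1, CD28 and CTLA-4 receptors of a T-cell. They were chosen by name, as ligands of related receptors, and each had 1 probe among the 785 probes of an nCounter panel for immune exhaustion in the mouse, an assay that tags RNA molecules with barcoded probes and counts them without amplification. Bone marrow of 9 wild-type C57BL/6 female mice aged 6 to 8 weeks was harvested at day 7, and RNA was taken from the T-cells that a pan-T-cell kit separated from it. The groups were 3 mice without leukemia and without treatment, 3 mice with leukemia given vehicle, and 3 mice with leukemia given rIL-12, recombinant interleukin-12. Leukemia was set up in unirradiated mice with 200000 cells of a BCR-ABL1+ Arf-/- B-ALL, injected into the tail vein, a mouse B-cell acute lymphoblastic leukemia that expresses luciferase and was transduced with GFP, so that all leukemia came from 1 engineered model. The rIL-12 was given from day 3 as 5 daily doses of 1 µg. The sample labels call the vehicle mice untreated, whereas the study's text calls them vehicle treated. No mice without leukemia were given rIL-12, so the effect of rIL-12 alone cannot be told apart from its effect in mice with leukemia.

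Cd274 encodes PD-L1 and Pdcd1lg2 encodes PD-L2, which bind the inhibitory receptor PD-1 on activated T-cells. PD-L1 is made by many cell types and is induced by interferon gamma, while PD-L2 is found mainly on dendritic cells and macrophages. Cd80 and Cd86 encode B7-1 and B7-2, which activated antigen-presenting cells use to costimulate T-cells through CD28 and which also bind the inhibitory receptor CTLA-4. Interleukin-12 is made by dendritic cells and macrophages and drives T-cells and NK cells to make interferon gamma.

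The DNA just before the gene starts is shown because IRF factors, which interferon gamma induces, bind short sites in their target genes. The sequences are the 250 bases before the annotated start, on the plus strand, from RefSeq with build GRCm38.p6, for the 3 members that were matched in the promoter table (Cd86 is named only). They lie at chr19:29367188-29367437 for Cd274, at chr19:29410669-29410918 for Pdcd1lg2 and at chr16:38458683-38458932 for Cd80. Capitals mark a match to GAAANNGAA, a short form of the IRF element, on either strand.
Cd274: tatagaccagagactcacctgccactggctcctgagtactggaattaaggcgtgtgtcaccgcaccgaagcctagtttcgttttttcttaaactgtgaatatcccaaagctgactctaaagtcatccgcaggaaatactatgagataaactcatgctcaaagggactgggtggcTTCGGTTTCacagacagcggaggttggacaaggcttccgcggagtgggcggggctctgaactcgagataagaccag
Pdcd1lg2: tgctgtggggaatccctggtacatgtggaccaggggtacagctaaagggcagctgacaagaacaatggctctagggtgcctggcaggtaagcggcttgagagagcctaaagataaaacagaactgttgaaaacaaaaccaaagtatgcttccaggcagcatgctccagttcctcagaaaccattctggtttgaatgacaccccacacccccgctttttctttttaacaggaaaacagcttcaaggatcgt
Cd80: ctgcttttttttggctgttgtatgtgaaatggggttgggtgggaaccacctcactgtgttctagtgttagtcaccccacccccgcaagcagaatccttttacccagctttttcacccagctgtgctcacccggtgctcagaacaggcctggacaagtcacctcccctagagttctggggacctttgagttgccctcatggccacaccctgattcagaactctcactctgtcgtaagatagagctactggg
The windows of Cd274 and Pdcd1lg2 began 43.5 kb apart on chromosome 19. The full IRF element, which is GAAANNGAA followed by 1 more A, was searched on both strands and found in 2.98% of the 32851 promoter windows of the same length, and in none of these 3. The short form GAAANNGAA, which every full element also contains, was chosen after the Cd274 window was seen and was found in 7.13% of windows. Cd274 held 1 such match, on the minus strand and starting 76 bases before the gene start.

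Total counts were between 257613 and 711748 per mouse, the lowest in vehicle mouse 3. A probe for a viral glycoprotein gene, which no group should express, counted 53 to 114 and was used as a reference for background. The raw counts of Cd274, Pdcd1lg2 and Cd86 were above the viral probe of the same mouse in 9 of 9 mice, and those of Cd80 in 2 of 9 mice, both given rIL-12. Values below are normalized counts, which are raw counts scaled between mice by TMM, a trimmed mean of ratios over all probes. Probes bind their targets with different efficiency, so levels were compared between mice and not between genes. Nothing in the labels says whether mice were handled in batches, and p-values rest on the spread between 3 mice per group.

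The called difference among the ligands was that of Cd80, which rose in rIL-12 treated mice with leukemia compared with mice without leukemia. A gene was called when its p from edgeR's quasi-likelihood test, adjusted across the 785 probes by the Benjamini-Hochberg method, was under 0.05 and the change was at least 1.5-fold. In that comparison 1 of 4 ligands was called, beside 8.92% of all probes called higher and 17.6% called in either direction. In vehicle treated mice with leukemia compared with mice without leukemia, 0 of 4 ligands were called by edgeR and by DESeq2. Of all 785 probes edgeR called 2.68%, and DESeq2 called 50 probes. In edgeR 1 of 4 ligands had an unadjusted p under 0.05. Between rIL-12 and vehicle treated mice, 0 of 4 were called by edgeR and by DESeq2. Of all probes edgeR called 13.8%, and DESeq2 called 136 probes. In edgeR 0 of 4 ligands had an unadjusted p under 0.05. Both comparisons with mice without leukemia share those 3 mice.

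The separation of the groups can also be read mouse by mouse. All 3 vehicle treated mice were above all 3 mice without leukemia for Cd274, Pdcd1lg2 and Cd80, which is 3 of 4 ligands, beside 12.7% of all probes that were higher without overlap. With rIL-12 this held for Pdcd1lg2 and Cd80, 2 of 4 ligands, beside 18.9% of all probes. Between rIL-12 and vehicle treated mice the groups overlapped for every ligand, whereas 30.7% of all probes did not overlap. With 3 mice against 3, the smallest p of the exact two-sided permutation test is 0.1, and adjusted over the 12 tests of the ligands no value was under 0.24.

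**Figure D1:**
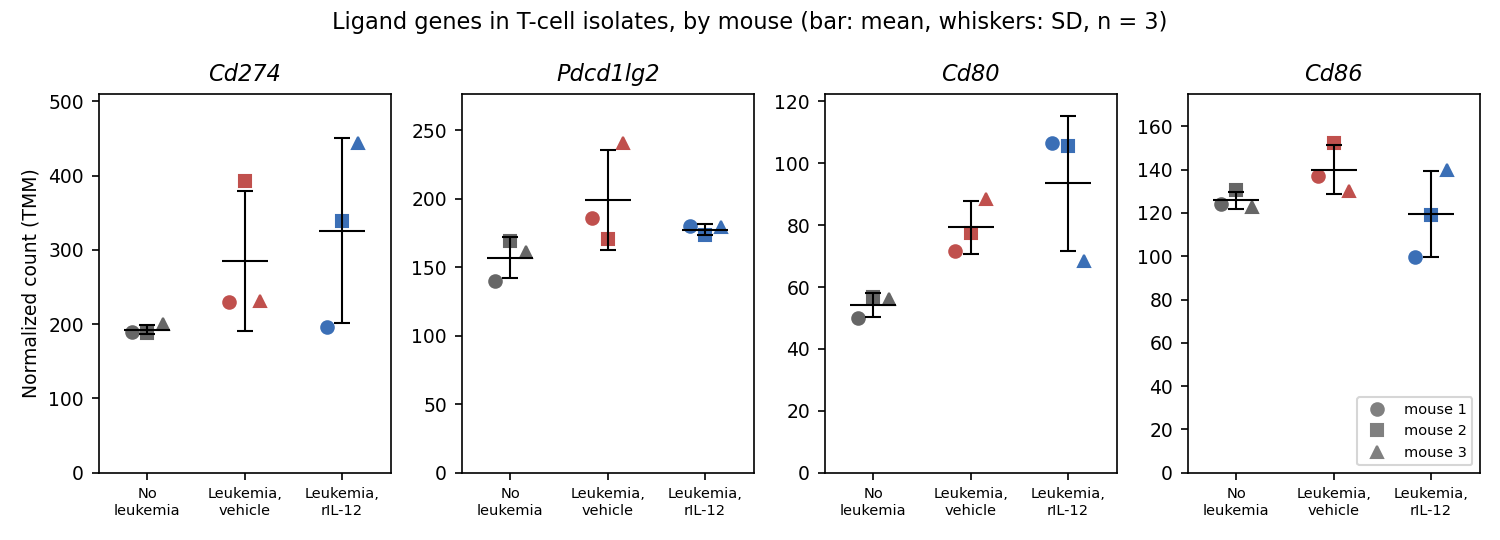
Normalized counts (vertical axis, from 0) of the 4 ligand genes in each mouse, by group, with a bar at the mean and whiskers of 1 SD (n = 3). Cd274 stays between 188 and 200.1 in mice without leukemia and spreads from 196 to 444 with rIL-12, and every Cd80 value in mice with leukemia lies above the 3 values without leukemia.

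Among the PD-1 ligands, Cd274 was even in mice without leukemia and uneven in mice with leukemia. Its normalized counts were 190.0, 188 and 200.1 in mice 1, 2 and 3 without leukemia. With leukemia and vehicle they were 230.1, 393 and 230.6, and after rIL-12 196, 338 and 444. Vehicle mouse 2 and 2 rIL-12 mice were high, while rIL-12 mouse 1 lay within the range of mice without leukemia. The coefficient of variation was 3.33% without leukemia, 33.1% after vehicle and 38.2% after rIL-12, and counting error alone gives 7.24%, 6.15% and 5.28%.

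The mean of Cd274 was 193 ± 6.42 without leukemia, 285 ± 94.1 after vehicle and 326 ± 125 after rIL-12 (SD, n = 3 each). The log2 fold change between vehicle treated mice and mice without leukemia was 0.57 ± 0.28 (SE), with a 95% interval from -0.044 to 1.18 and an adjusted p of 0.382 in edgeR's quasi-likelihood test. Without vehicle mouse 2 it was 0.27. With the replicate number as a block, in a model of these 2 groups, it was 0.53 with an adjusted p of 0.0129, under the 1.5-fold threshold and not called. Over the alternatives tried, the adjusted p ran from 0.0129 to 0.811. Between rIL-12 treated mice and mice without leukemia the log2 fold change was 0.75 ± 0.28, with an interval from 0.15 to 1.36 and an adjusted p of 0.0771, and the groups overlapped through mouse 1. Without rIL-12 mouse 1 it was 1.02 with an adjusted p of 0.00982 and was called, and without rIL-12 mouse 3 it was 0.47 with an adjusted p of 0.221. Over the alternatives tried, this adjusted p of Cd274 ran from 0.00982 to 0.322. Between rIL-12 and vehicle the log2 fold change was 0.19 ± 0.28 with an interval from -0.41 to 0.79 (adjusted p = 0.682).

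Pdcd1lg2 differed by less between groups. Its normalized counts were 140.1, 169 and 161 without leukemia, 186, 171 and 241 with vehicle, and 180.2, 173 and 179 with rIL-12. Both leukemia groups lay above the group without leukemia, by a narrow margin between the highest mouse without leukemia and vehicle mouse 2. The high value of vehicle mouse 3 came from the library with the lowest total count, in which the raw count was 144.

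The mean of Pdcd1lg2 was 157 ± 15.0 without leukemia, 199 ± 36.8 after vehicle and 177 ± 3.73 after rIL-12 (SD, n = 3 each). The log2 fold change was 0.33 ± 0.18 (SE) for vehicle against no leukemia, with a 95% interval from -0.046 to 0.71 and an adjusted p of 0.411. Without vehicle mouse 3 it was 0.18. It was 0.18 ± 0.17 for rIL-12 against no leukemia, with an interval from -0.20 to 0.55 (adjusted p = 0.556). Between rIL-12 and vehicle it was -0.16 ± 0.17 with an interval from -0.53 to 0.22 (adjusted p = 0.556).

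Of the CD28 and CTLA-4 ligands, Cd80 had a higher normalized count in every mouse with leukemia than in every mouse without. Its normalized counts were 49.9, 56.6 and 56.1 without leukemia, 71.7, 77.6 and 88.6 with vehicle, and 107, 106 and 68.3 with rIL-12. The highest values were those of rIL-12 mice 1 and 2, and rIL-12 mouse 3 lay below all vehicle mice. Among the mice given rIL-12, Cd80 was lowest in mouse 3, in which Cd274 was highest. The normalized counts of Cd80 in mice 1 and 2 were nearly equal, and their raw counts, 123 and 131, were in the reverse order. The value of 88.6 in vehicle mouse 3 came from a raw count of 53 in the library with the lowest total count. That raw count was below those of mice 2 and 3 without leukemia, at 56 and 58. Raw counts of Cd80 were low, from 47 to 131, and counting error alone gives a coefficient of variation of 13.7% without leukemia, 12.01% after vehicle and 9.68% after rIL-12.

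The mean of Cd80 was 54.2 ± 3.75 without leukemia, 79.3 ± 8.58 after vehicle and 93.5 ± 21.8 after rIL-12 (SD, n = 3 each). Between rIL-12 treated mice and mice without leukemia Cd80 rose by a log2 fold change of 0.78 ± 0.21 (SE), with a 95% interval from 0.33 to 1.23 and an adjusted p of 0.0206 in edgeR's quasi-likelihood test. The raw counts were above the viral probe of the same mouse in 0 of 3 mice without leukemia, 0 of 3 with vehicle and 2 of 3 with rIL-12, so the size of this fold change rests on counts not above the background reference. Over the alternatives tried its adjusted p ran from 0.00315 to 0.157. The call was lost without mouse 1, 2 or 3 of the group without leukemia (log2 fold changes of 0.75, 0.81 and 0.85) and without rIL-12 mouse 1 or 2 (0.68 and 0.69), and it held without rIL-12 mouse 3 (0.95). It was also lost when mice were scaled by housekeeping genes or by total count, and with the replicate number as a block in a model of only these 2 groups (0.75, adjusted p = 0.0882), and the filter on probes above the viral probe left Cd80 out.

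For vehicle against no leukemia the log2 fold change of Cd80 was 0.53 ± 0.22, with an interval from 0.063 to 0.998, an unadjusted p of 0.0292 and an adjusted p of 0.252 in edgeR's quasi-likelihood test. Between rIL-12 and vehicle it was 0.25 ± 0.21 with an interval from -0.20 to 0.70 (adjusted p = 0.430). The difference between the means of these groups was smaller than the SD of the rIL-12 group.

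Cd86 was close to even across the groups. Its normalized counts were 124, 130.5 and 123 without leukemia, 137, 152 and 130.3 with vehicle, and 99.6, 119 and 139.7 with rIL-12. The groups overlapped in every comparison, and the lowest value was that of rIL-12 mouse 1, in which Cd80 was among the highest. The means were 126 ± 4.12, 140.0 ± 11.3 and 119.5 ± 20.03 (SD, n = 3 each).

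The log2 fold change of Cd86 was 0.16 ± 0.17 (SE) for vehicle against no leukemia, with a 95% interval from -0.22 to 0.53 (adjusted p = 0.741). It was -0.076 ± 0.17 for rIL-12 against no leukemia, with an interval from -0.45 to 0.30 (adjusted p = 0.819), and -0.23 ± 0.17 for rIL-12 against vehicle, with an interval from -0.61 to 0.14 (adjusted p = 0.384). In all 3 comparisons the interval of Cd86 holds 0 and leaves out a 2-fold change in either direction.

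**Figure D2:**
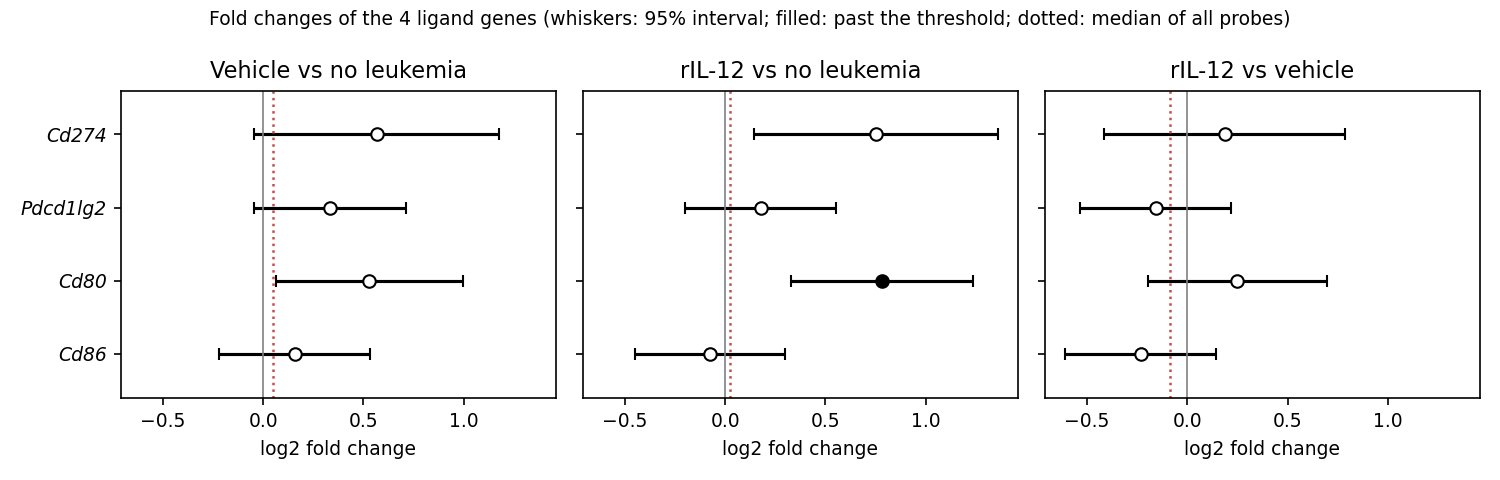
Log2 fold changes (horizontal axis) of the 4 ligand genes in the 3 comparisons, with whiskers for the 95% interval from edgeR, a filled point for a gene past the threshold, and a dotted line at the median of all 785 probes. The filled point is Cd80 in rIL-12 treated mice against mice without leukemia, at 0.78.

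The median log2 fold change over the 4 ligands was 0.43 for vehicle against no leukemia, 0.46 for rIL-12 against no leukemia and 0.015 for rIL-12 against vehicle. The corresponding medians of all probes were 0.049, 0.024 and -0.084. In bulk RNA, fewer or more cells of a type and less or more RNA per cell cannot be told apart.

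The balance between ligands of the same receptors was compared as a ratio of raw counts within each mouse, which does not depend on scaling between mice. The log2 ratio of Cd80 to Cd86 was -1.32, -1.204 and -1.13 without leukemia, -0.94, -0.97 and -0.56 with vehicle, and 0.097, -0.18 and -1.03 with rIL-12. Every mouse with leukemia was above every mouse without it, and rIL-12 mice 1 and 2 were above all others. The mean was -1.22 ± 0.093 without leukemia, -0.82 ± 0.23 after vehicle and -0.37 ± 0.59 after rIL-12 (SD, n = 3 each). It was higher than without leukemia by 0.39 with vehicle and by 0.85 with rIL-12, each with an exact two-sided permutation p of 0.1, the smallest possible, and 0.3 after adjustment over 6 ratio tests. Between rIL-12 and vehicle the difference was 0.45 (exact p = 0.4). The size of these ratios also rests on Cd80 counts that were not above the viral probe in the mice without leukemia or with vehicle.

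The log2 ratio of Cd274 to Pdcd1lg2 was 0.44, 0.16 and 0.31 without leukemia, 0.31, 1.203 and -0.061 with vehicle, and 0.12, 0.97 and 1.31 with rIL-12. The groups overlapped, with vehicle mouse 2 and rIL-12 mice 2 and 3 above the rest. The means were 0.30 ± 0.14, 0.48 ± 0.65 and 0.80 ± 0.61 (SD, n = 3 each). The differences were 0.18 for vehicle against no leukemia (exact permutation p = 0.9), 0.50 for rIL-12 against no leukemia (p = 0.4) and 0.31 for rIL-12 against vehicle (p = 0.7). Without vehicle mouse 2 the difference between vehicle and no leukemia was -0.18.

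**Figure D3:**
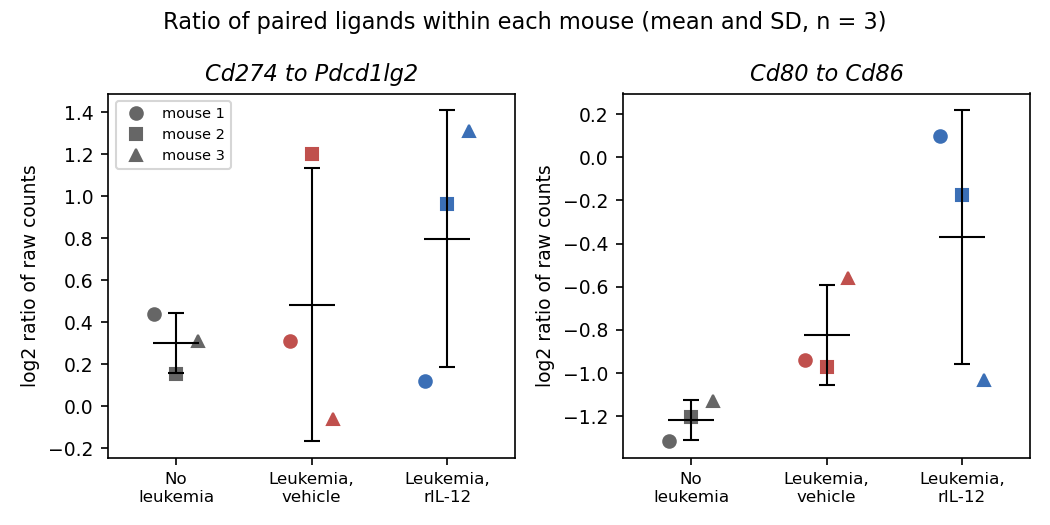
Log2 ratio of raw counts within each mouse (vertical axis) for the PD-1 ligands and for the CD28 and CTLA-4 ligands, by group, with the mean and 1 SD (n = 3). For Cd80 to Cd86, the mice without leukemia lie between -1.32 and -1.13, below all 6 mice with leukemia.

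Of 3 receptor genes of these ligands, 1 was called in each comparison. With vehicle against no leukemia it was Pdcd1, beside 2.68% of all probes called in either direction. With rIL-12 against no leukemia it was Cd28, beside 17.6%, and with rIL-12 against vehicle Pdcd1, beside 13.8%. Pdcd1, the gene of PD-1, had raw counts above the viral probe of the same mouse in 0 of 3 mice without leukemia, 3 of 3 with vehicle and 1 of 3 with rIL-12. The size of its fold change against no leukemia thus rests on counts not above that reference. Pdcd1 rose with leukemia from 61.3 ± 6.30 to 186 ± 74.1 (SD, n = 3 each), a log2 fold change of 1.58 (adjusted p = 0.0283), and was lower with rIL-12 than with vehicle, at 84.5 ± 35.5, a log2 fold change of -1.13 (adjusted p = 0.03999) with groups that overlapped. Cd28 had a mean of 603 ± 98.6 without leukemia, 574 ± 164 after vehicle and 323 ± 149 after rIL-12. It fell with rIL-12 compared with no leukemia, with a log2 fold change of -0.90 (adjusted p = 0.0480 in edgeR's quasi-likelihood test). Cd28 is also among the 11 T-cell markers below, of which 10 fell in that comparison. Ctla4 had means of 62.0 ± 15.1, 108 ± 33.8 and 80.8 ± 28.1 and was called in no comparison, with adjusted p from edgeR of 0.223, 0.478 and 0.346. Rgmb, a further binding partner of PD-L2, was not analysed here.

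Markers of the cells that could carry the ligands were measured in the same libraries. Summed over 11 T-cell markers, the normalized count ran from 6416 to 10873 without leukemia, from 3855 to 5752 with vehicle and from 2049 to 3866 with rIL-12. Of these 11 markers, 2 fell with vehicle compared with no leukemia (Cd8b1 and Cd8a), beside 2.68% of all probes called in either direction. With rIL-12 compared with no leukemia 10 fell, beside 17.6% of all probes called in either direction, the largest falls in Cd8b1, Cd8a and Cd3d. No probe of the panel, the viral probe included, was at 0 in any mouse, so a count above 0 does not show expression.

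Markers of antigen-presenting and other cells were counted in all groups of these T-cell isolates, some of them at background. The mean raw count was not above that of the viral probe for 5 of 14 myeloid and macrophage markers and 1 of 4 dendritic cell markers. The same held for 3 of 9 B-cell or B-ALL markers and 2 of 8 NK cell markers. The sum over 14 myeloid and macrophage markers ran from 11701 to 13605 without leukemia, from 12615 to 16888 with vehicle and from 13067 to 18548 with rIL-12. Of the 14, 3 rose with rIL-12 compared with no leukemia (Fcgr4, Fcgr1 and Cd68), beside 8.92% of all probes called higher. Among the mice given rIL-12, the sum over the 14 was highest in mouse 1 and lowest in mouse 3, at 18548 and 13067. The normalized count of Cd80 was also lowest in mouse 3, at 68.3, and nearly equal in mice 1 and 2, at 107 and 106. In the vehicle treated mice the order differed. The myeloid sums there were 16599, 16888 and 12615 in mice 1, 2 and 3, beside Cd80 at 71.7, 77.6 and 88.6. Other sums shared the order seen with rIL-12. The sum over the B-cell or B-ALL markers was also highest in rIL-12 mouse 1 and lowest in mouse 3, at 2137 and 1938. The sums over dendritic cell, MHC class II and housekeeping genes were lowest in rIL-12 mouse 3 as well. The part of any of these cells in the result for Cd80 was not tested.

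The sum over 4 dendritic cell markers ran from 2042 to 2545 without leukemia, from 1788 to 1824 with vehicle and from 2221 to 3000 with rIL-12, with Bst2 higher and Siglech lower with rIL-12 than without leukemia. The sum over 7 genes of MHC class II presentation ran from 2216 to 2509, from 2435 to 2795 and from 3673 to 8584 in the same order. Of these 7 genes, 6 rose with rIL-12 compared with no leukemia and 1 fell (H2-Ob), beside 17.6% of all probes called in either direction. The part of these cells and genes in the values of the ligands was not tested.

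The leukemia cells themselves are B-lineage cells. The sum over 9 B-cell or B-ALL markers ran from 1853 to 1930 without leukemia, from 2083 to 2353 with vehicle and from 1938 to 2137 with rIL-12. The sum over 8 NK cell markers ran from 3115 to 3710, from 2724 to 3742 and from 3110 to 4351. The part of either cell type in the ligand values was not tested.

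Of 17 measured genes of the interferon gamma pathway, 9 rose and 0 fell with rIL-12 compared with no leukemia, beside 8.92% of all probes called higher. Among the 9 were the interferon-induced GTPase gene Gbp2 (log2 fold change 4.50) and the chemokine gene Cxcl9 (2.66). The median log2 fold change of the 17 was 0.73, beside 0.024 for all probes. Compared with vehicle, 5 of 17 rose and 0 fell, beside 13.8% of all probes called in either direction. With vehicle compared with no leukemia edgeR called 0 of 17, beside 2.68% of all probes. In the mice given rIL-12 the sum over the 17 genes was 11374, 24745 and 18105 in mice 1, 2 and 3, beside Cd274 at 196, 338 and 444. Both were lowest in mouse 1, but the sum was highest in mouse 2 and Cd274 in mouse 3. With vehicle the sums were 8479, 10376 and 7448, beside Cd274 at 230.1, 393 and 230.6. Sums over other lists followed the order of Cd274 in the mice given rIL-12. Among them were the T-cell markers (2049, 2757 and 3866) and the NK cell markers (3110, 4016 and 4351). With vehicle, the T-cell sum was highest in mouse 1 and the NK cell sum in mouse 2. The part of this pathway or of these cells in the values of Cd274 was not tested.

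Of 13 other checkpoint and costimulatory ligands or their partners with a probe, 2 rose with rIL-12 compared with no leukemia, beside 8.92% of all probes called higher. They were Lgals9, the gene of galectin-9, a ligand of TIM-3 (log2 fold change 1.32, adjusted p = 0.0158), and Icosl, the gene of the ICOS ligand (0.67, adjusted p = 0.0430). In the other comparisons edgeR called 0 of the 13, beside 2.68% of all probes with vehicle against no leukemia and 13.8% with rIL-12 against vehicle. Their median log2 fold change was 0.17 with vehicle and 0.073 with rIL-12, each compared with no leukemia, and -0.018 between rIL-12 and vehicle.

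Of 16 genes of CD28 and PD-1 signaling inside the T-cell, 1 was called with vehicle compared with no leukemia, beside 2.68% of all probes. It was Nfkb2, an NF-kappaB subunit gene, which rose. With rIL-12, 4 of 16 fell and 0 rose, compared with no leukemia and likewise compared with vehicle, beside 17.6% and 13.8% of all probes called in either direction. They included Lck and Zap70, which relay signals from the T-cell receptor. Both are also among the T-cell markers above.

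The pattern of each ligand over the 9 mice was set beside 487 probes with a symbol and a mean raw count of at least 100, by Pearson's r of log2 normalized counts, as a description. The probes most like Cd274 were Il12rb1, a subunit gene of the interleukin-12 receptor (r = 0.97), Oas2, an interferon-induced gene (0.97), and Lgals9 (0.93). Those most like Cd80 were Btk (0.91), Cpa3, a mast cell protease gene (0.91), and Hgf (0.88). For Pdcd1lg2 they were Tgfb2 (0.91), Tnfrsf17 (0.89) and Cd33 (0.86), and for Cd86 they were Tapbp (0.92), Fadd (0.89) and Jak3 (0.88). The points share the groups and the scaling of each library.

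Between the ligands themselves, over the same 9 mice, r was 0.57 for Pdcd1lg2 and Cd80, 0.54 for Cd274 and Cd86, 0.31 for Cd274 and Cd80, 0.13 for Cd274 and Pdcd1lg2, 0.078 for Pdcd1lg2 and Cd86, and -0.37 for Cd80 and Cd86. The value for the neighboring genes Cd274 and Pdcd1lg2 was thus close to 0.

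**Figure D4:**
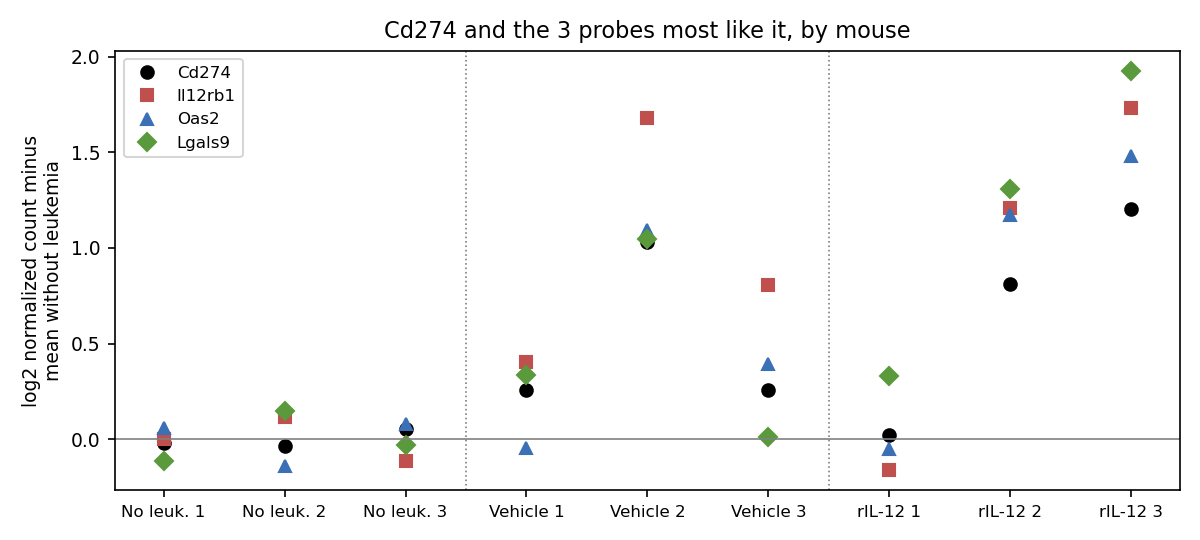
Log2 normalized counts of Cd274 and of the 3 probes most like it, minus each gene's mean in mice without leukemia (vertical axis), for each of the 9 mice. Vehicle mouse 2 and rIL-12 mice 2 and 3 are high for all 4 genes, and in rIL-12 mouse 1 Cd274 (196) is near its level without leukemia.

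The scaling between mice set part of the size of these differences. Scaled by 10 housekeeping genes, the median of all probes moved to -0.28 for rIL-12 against no leukemia and to -0.49 for rIL-12 against vehicle, and by total count to -0.15 and -0.28. Under housekeeping scaling Cd80 had a log2 fold change of 0.45 against no leukemia (adjusted p = 0.156), and under total count scaling 0.59 (adjusted p = 0.112). Relative to the median of all probes Cd80 was between 0.73 and 0.77 and Cd274 between 0.71 and 0.76 under the 5 scalings, which follows from the method, since a scaling shifts all probes of a mouse alike. Of the 10 housekeeping genes, 2 were called higher and 8 were not called with rIL-12 compared with no leukemia, beside 8.92% of all probes called higher. Compared with vehicle 4 were called higher and 6 were not called, beside 13.8% of all probes called in either direction.

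**Figure D5:**
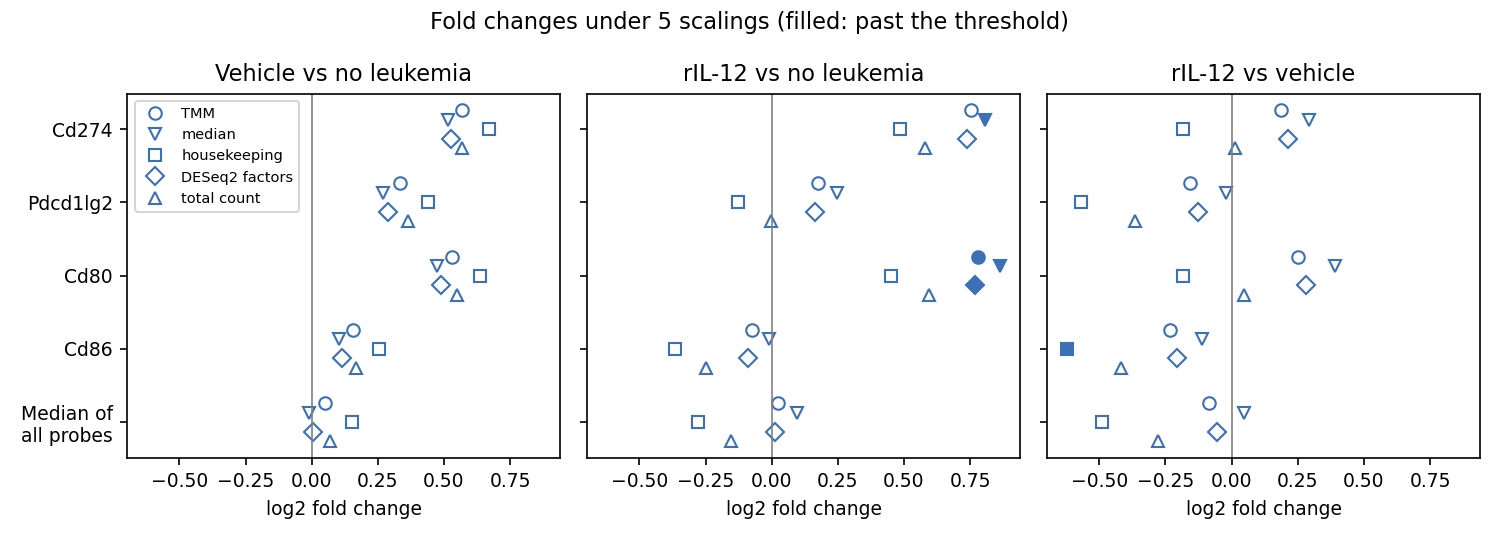
Log2 fold changes (horizontal axis) of the 4 ligand genes and the median of all probes under 5 scalings between mice, with filled points for genes past the threshold. With rIL-12 against no leukemia Cd80 is positive throughout, from 0.45 to 0.86.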

How the data were processed

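The deposited table holds raw barcode counts as whole numbers, 1 column per mouse, which the authors had not normalized. The nSolver normalization of the study's methods is not in these values. Probes were matched to symbols through RefSeq transcripts (751 of 785 probes, and 34 were tested without a symbol). Total counts were between 257613 and 711748 per mouse, and their number limits the precision of low probes such as Cd80.

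TMM scaling was followed by the quasi-likelihood test of edgeR 4.0.16 in R 4.3.3, with the 3 groups in one model, a prior count of 1, no block for replicate numbers and no filter. P-values were Benjamini-Hochberg adjusted over all 785 probes. The code was tested on simulated data with changes larger than those of the ligands. That test does not show how often changes of the size seen here would be called. Ratios and single genes were compared with exact two-sided permutation tests in scipy 1.17.1. Alternatives were other scalings, filters (a mean count of 20, or above the viral probe), prior counts of 0.1 and 10, models of 2 groups, a replicate block, robust variance, DESeq2 1.42.0, the methods' t-test, other fold thresholds, a pseudocount of 10 for ratios, and leaving out each mouse.

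The members and gene lists were chosen with earlier results of these data known. Named were the 4 ligands, their receptors, at most the 3 called genes of each list with the largest change per comparison, and the 3 probes most like each ligand. H2-Ob was named outside this rule, after its value was seen. Protein sequences were not used here. The labels do not say what the replicate numbers stand for. Deviations of same-numbered mice correlated at 0.25, 0.11 and 0.12 between the vehicle and no leukemia groups, all above 0.1. They correlated at 0.33, 0.13 and 0.022 between the vehicle and rIL-12 groups, and at 0.0089, -0.077 and -0.18 between the no leukemia and rIL-12 groups. A replicate block in models of 2 groups was therefore added after seeing the data. Some genes and a motif that the rules name are not reported here.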

Additional observations from a re-analysis of the deposited data

How the results depend on the processing

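Of the log2 fold changes of the 4 ligands under all alternatives, 290 kept their direction and their side of the threshold, 10 lost the call, 3 gained it and 6 changed sign. The 10 were all of Cd80 in rIL-12 against no leukemia, the result that was called. Not all alternatives could change a result, since other fold thresholds reuse the same fit and prior counts left the adjusted p as it was. The t-test was counted with adjusted and with unadjusted p. For rIL-12 against no leukemia, where 1 ligand was called, 2 were called with median scaling (Cd274 joined at 0.81, adjusted p = 0.0442), and 0 with housekeeping scaling, total count scaling, the filter above the viral probe, the methods' t-test with adjusted p, a 2-fold threshold, or a replicate block in a model of only 2 groups. Leaving out 1 mouse gave 0 to 1. For rIL-12 against vehicle, 1 ligand was called with housekeeping scaling (Cd86 at -0.62, adjusted p = 0.0473, the lowest of a range up to 0.767) and 0 otherwise. For vehicle against no leukemia 0 were called under every alternative. The cause of these changes was not tested, except that the viral probe filter left Cd80 out and the 2-fold threshold lies above its change.

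The sign turned for Pdcd1lg2 in rIL-12 against no leukemia with housekeeping (-0.13) and total count scaling (-0.0011), and in rIL-12 against vehicle with housekeeping scaling for Cd274 (-0.18) and Cd80 (-0.18). Leaving out 1 mouse gave -0.20 to 0.038 for Cd86 in rIL-12 against no leukemia, -0.098 to 0.46 for Cd274 in rIL-12 against vehicle, and -0.18 to 0.45 for the ratio of Cd274 to Pdcd1lg2 in vehicle against no leukemia.

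Over all probes, 21, 138 and 108 were called in vehicle against no leukemia, rIL-12 against no leukemia and rIL-12 against vehicle. Alternatives with the same thresholds gave 0 to 76, 0 to 155 and 0 to 230, and leaving out 1 mouse gave 0 to 42, 66 to 194 and 0 to 199. With the replicate number as a block 20, 125 and 98 were called, and Cd80 kept its call (0.77, adjusted p = 0.0364). With the block in models of only 2 groups, chosen after seeing the data, 76, 65 and 137 were called, and the call of Cd80 was the only one among the ligands that changed. Deviations of same-numbered mice correlated above 0.1 in all 3 pairs only between the vehicle and no leukemia groups. Between the vehicle and rIL-12 groups they were also positive in all 3 pairs, at 0.33, 0.13 and 0.022. Raw counts of Cd80 were above the viral probe in 2 of 9 mice.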
